A study of Mus musculus with 24 samples.

Results

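Late and early 1-cell mouse embryos were compared over all measured genes. The late embryos were the 8 collected at 10 h and 12 h after intracytoplasmic sperm injection (ICSI), and the early embryos were the 7 collected at 2 h and 4 h. These 15 embryos were chosen by their labelled time alone, from the 24 cells of the series, and no oocyte entered the comparison. Each cell was a single embryo on its own Agilent microarray, with 3 embryos for the 2 h group and 4 for each of the 4 h, 10 h and 12 h groups. The other cells, 3 metaphase II oocytes taken as 0 h and 3 embryos each of 6 h and 8 h, are given below only as values beside those of the 15. All embryos were of the B6D2F1 hybrid strain, carried no transgene or drug by their labels, and were made by injecting sperm of B6D2F1 males aged 8 to 12 weeks. The sources used here do not state the age of the oocyte donors. The time alone separates the pools, and no label ties a cell to an animal, a day or a session of injection. P-values therefore measure the spread between these cells.

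In ICSI a sperm is placed directly in the cytoplasm of an oocyte arrested in metaphase of the second meiotic division. The oocyte completes meiosis, the pronuclei form, the DNA is copied and the zygote then enters the first cleavage division. A mature oocyte is largely silent in transcription and lives on stored maternal mRNA. After fertilization many of these messages are shortened at their poly(A) tails and destroyed, others gain a longer tail and become translated, and the zygote begins to transcribe its own genome at a low level before the main wave at the 2-cell stage. Because mRNA was captured here on oligo-dT beads, the number of molecules and the length of their poly(A) tails cannot be told apart in a level.

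Levels are given as log2 intensity recovered from the deposited scores, on which the most common value, taken as background, was 6.82. Changes of genes near that level are understated. A gene was called changed when limma's test over all 19532 genes gave a Benjamini-Hochberg adjusted p under 0.05, and each such p below comes from that fit. Fold changes are differences of log2 means, late minus early, with their standard error (SE). Array number limits the precision: the median SD of a gene was 0.62 over the 7 early embryos and 0.61 over the 8 late ones, and the median SE of a change was 0.36.

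Of the 19532 genes, 43 were called (0.22%): 37 were lower in late embryos (0.189%) and 6 were higher (0.0307%). The median change of the lower genes fell by 2.55 on the log2 scale, and single genes ranged from -3.85 to -0.60. The median change of the higher genes was 2.93, with a range of 1.2 to 3.79. Over all genes the median change was 0.02. At an unadjusted p under 0.05 there were 897 lower genes (4.59%) and 988 higher genes (5.06%), so the predominance of lower genes is seen among the called genes and not at this wider threshold. The early and late values did not overlap at all in 22 of the 37 lower and 5 of the 6 higher genes. Over all genes that was so for 44 lower genes (0.225%) and 21 higher genes (0.108%).

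The count of called genes depended on which embryo was left out. It was 11, 13 and 15 without the 2 h embryos a, b and d, and 16, 21 and 19 without the 4 h embryos a, c and d. It was 27, 19, 25 and 17 without the 12 h embryos a, b, c and d. The count moved less without the other embryos: it was 36 without the 4 h embryo b, and 47, 38, 38 and 45 without the 10 h embryos a, b, c and d. In 10 genes the call stood in all 15 fits that left out 1 embryo: Atf6b, Cep44, Plat, Ttyh3, Dpy19l3, Ern1, Slc31a2, Slc45a3, Bmp15 and Nudt1. The other 33 lost it in at least 1 of those fits, where the adjusted p of a called gene reached 0.109 at most, and 0 genes changed direction in any of the alternatives run.

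A technical measure differed between the pools. The number of distinct values on an array, low where the recovered intensities are coarse, averaged 6164 ± 586 (SD, n = 7) over the early embryos and 6898 ± 591 (SD, n = 8) over the late ones (exact permutation test over 6435 splits, two-sided, p = 0.0331). The early arrays ran from 5309 to 6954 and the late ones from 5837 to 7531, so the pools overlap. Without the 4 arrays under 6000 (2 h b, 4 h c, 4 h d and 10 h c), 7 genes were called, all lower, and 4 of them were among the 43: Atf6b, Cep44, Tm9sf3 and Nfya. With the number of distinct values as a covariate, 3 were called, Atf6b, Cep44 and Ern1, at adjusted p of 0.0118, 0.0118 and 0.0482. The other 40 then had adjusted p between 0.0879 and 0.377. All 43 kept their direction in both fits. Their sizes changed less than their p-values: the median gene held 95.7% of its change with the covariate and 101% without the 4 arrays, and the least any gene held was 68.0% and 74.0%.

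Markers of the expected cell stood high in both pools. Of 39 measured oocyte maternal genes, 37 exceeded background by 1 log2 unit, and their mean level per embryo was 13.2 to 13.5 in early and 12.9 to 13.3 in late embryos. Of the markers of other cells most stayed near background and a few were bright. For 22 cumulus and granulosa cell markers, 5 of them above background by 1 unit, the mean level was 7.67 to 8.00 in early and 7.67 to 8.40 in late embryos. For 13 blood cell markers, 3 of them above, it was 7.74 to 8.49 and 7.56 to 8.26. For 29 sperm and spermatid markers, 9 of them above, it was 7.97 to 8.27 and 8.03 to 8.19. The brightest were Amh of the granulosa list (mean 13.23 in early and 13.02 in late embryos), the globin gene Hbb-bt of the blood list (13.94 and 13.63) and, of the sperm list, Odf2 (13.24 and 12.75) and Gapdhs (13.02 and 12.88). Their part in the results was not tested. Of these 3 lists, 0 members were called by limma, and 4 of 64 had an unadjusted p under 0.05. Prm1, the sperm protamine that packs paternal DNA and whose message the sperm can carry, had late minus early -0.44 (SE 0.26, adjusted p = 0.606) with a median of 12.78 in early and 12.24 in late embryos. In the 3 oocytes, which had not been injected, Prm1 stood at 11.37 ± 0.12 (SD), so its signal was above background without a sperm.

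**Figure D1:**
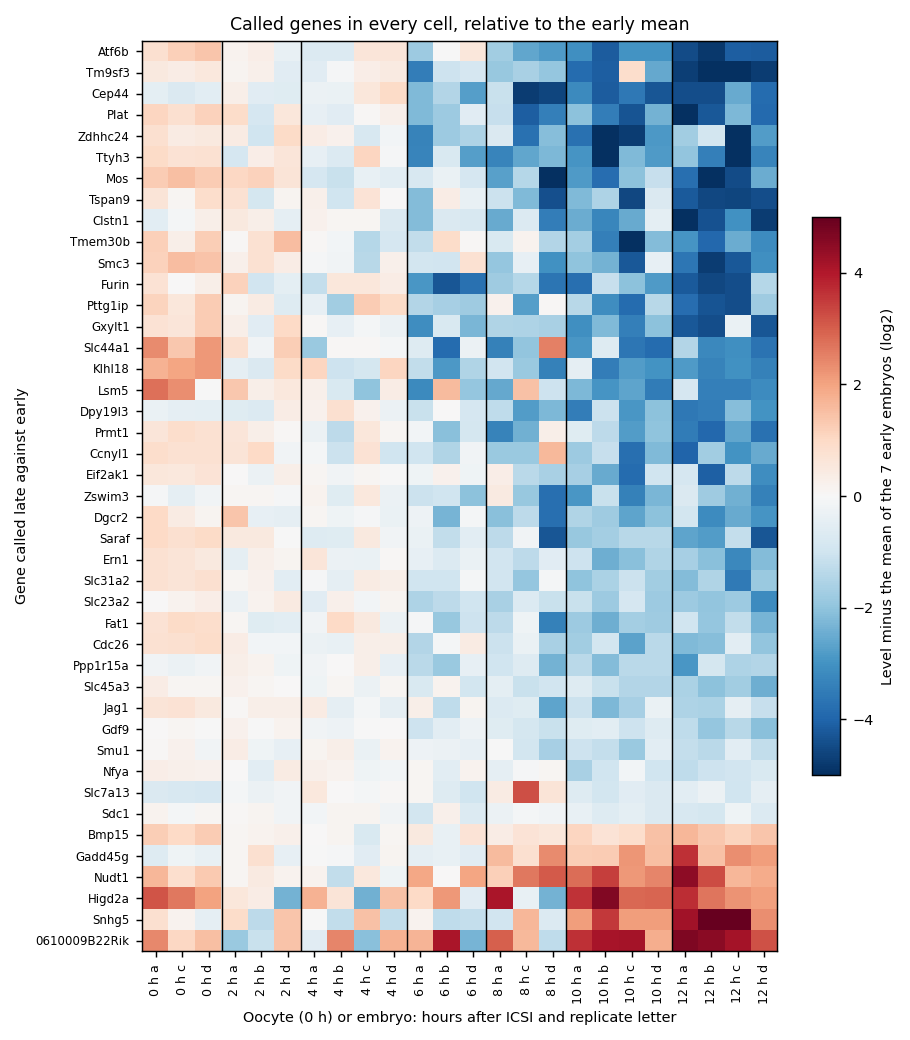
Level of the 43 called genes (vertical axis) in each of the 24 cells (horizontal axis, by hours after ICSI and replicate letter), as the difference in log2 intensity from the mean of the 7 early embryos, blue for lower and red for higher. The 6 h means of 21 of the 37 lower genes and the 8 h means of 30 lie below every early embryo, and 3 of the 6 higher genes have an oocyte mean, and 3 an 8 h mean, above every early embryo. The shares over all genes were not computed for these counts, and the early embryos also entered the calls.

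The heat map shows the course of the called genes through cells that the comparison did not use. For the 37 lower genes, the median of the gene means was 13.42 in oocytes. It was 12.93 in 2 h and 12.80 in 4 h embryos, 11.67 and 11.13 in those of 6 h and 8 h, and 10.39 and 9.64 in those of 10 h and 12 h. The 6 h and 8 h embryos thus lay between the pools. For the 6 higher genes the medians in the same order were 9.94, 8.45, 8.58, 9.72, 10.19, 11.56 and 12.46. The oocyte median was above that of 2 h and 4 h, and the genes differed in this: the oocyte means of Bmp15, Nudt1 and Higd2a were above every early embryo, and those of Snhg5, Gadd45g and 0610009B22Rik were within the early range. At 12 h the mean was further from the early one than at 10 h in 29 of the 37 lower and 5 of the 6 higher genes. The share over all genes was not computed for this count, and both times entered the calls. Among the lower genes Slc7a13 was higher at 8 h than in early embryos (8.42 against 6.99). Within the pools, limma called 0 genes between 12 h and 10 h (0%; 1530 at an unadjusted p under 0.05, smallest adjusted p = 0.274) and 0 between 4 h and 2 h (0%; 1596 unadjusted, smallest adjusted p = 0.122).

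Of the gene lists, the one with the most called members covers the response to misfolded protein in the endoplasmic reticulum (ER) and the stress kinases that act on the same translation factor. In this response membrane sensors of the ER, encoded by Ern1, Eif2ak3 and Atf6, detect unfolded protein and switch on chaperones, degradation factors and a brake on translation. Of 41 measured genes of the list, 4 were called and all 4 were lower: Atf6b, Ern1, Ppp1r15a and Eif2ak1. By comparison 0.189% of all genes were called lower. At an unadjusted p under 0.05, 10 members were lower and 3 higher (24.4% and 7.32%, against 4.59% and 5.06% of all genes). The lists were chosen with earlier results of these data known, so their shares are not independent of these data. The shares were also not matched for level: 35 of the 41 exceeded background by 1 log2 unit, against 10636 of all 19532 genes. The median change over the 41 was -0.11, with members spread to both sides: 13 were below -0.5 and 6 above 0.5. The count of 10 lower members was 6 with the number of distinct values as a covariate.

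Atf6b, an ER membrane protein related to the sensor Atf6 and cleaved like it to release a transcription factor, had the largest fall of all called genes. Its level in early embryos ran from 11.43 through a median of 12.32 to 12.74, and in late embryos from 7.29 through 8.00 to 9.14. No late embryo came within 2 log2 units of an early one. The change was -3.85 (SE 0.40, adjusted p = 0.000235), and it was -3.38 with the number of distinct values as a covariate. In oocytes the level was 13.27 ± 0.29 (SD, n = 3), at 6 h 11.71 ± 1.25 (SD, n = 3) and at 8 h 9.75 ± 0.58 (SD, n = 3).

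Ern1, which encodes the sensor IRE1 alpha, an ER kinase and endoribonuclease that splices Xbp1 mRNA, ran from 13.65 through 14.17 to 14.74 in early embryos and from 10.91 through 12.03 to 13.07 in late ones. Early and late embryos did not overlap, and the change was -2.02 (SE 0.28, adjusted p = 0.0077). Its levels at 6 h and 8 h, 13.64 ± 0.19 and 13.17 ± 0.39 (SD, n = 3 each), lay between the pools. Xbp1 itself, chosen after its value was seen, changed by 0.16 (SE 0.27) and was not called. It stood near background in both pools (mean 7.02 in early and 7.18 in late embryos), so its change concerns a probe without clear signal.

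Ppp1r15a encodes GADD34, the stress-induced subunit that directs a phosphatase to remove the phosphate from the translation factor eIF2 alpha. Its level ran from 13.15 through 13.56 to 13.87 in early and from 10.64 through 12.14 to 12.67 in late embryos, without overlap, and the change was -1.63 (SE 0.27, adjusted p = 0.0161). The call was lost without the 2 h embryo a or b, at an adjusted p of up to 0.0588. Eif2ak1 encodes HRI, a kinase that phosphorylates the same factor when heme is short. Early embryos lay closely together, from 13.46 through 13.76 to 14.06, and late ones were spread from 9.70 through 11.66 to 12.92. The change was -2.30 (SE 0.45, adjusted p = 0.0435). Another 2 probes of Eif2ak1 above background gave -1.96 and -1.48, and the call stood without the 10 h embryo a or d or the 12 h embryo a or c and was lost in the other 11 of the 15 fits without 1 embryo, with adjusted p of up to 0.0998.

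**Figure D2:**
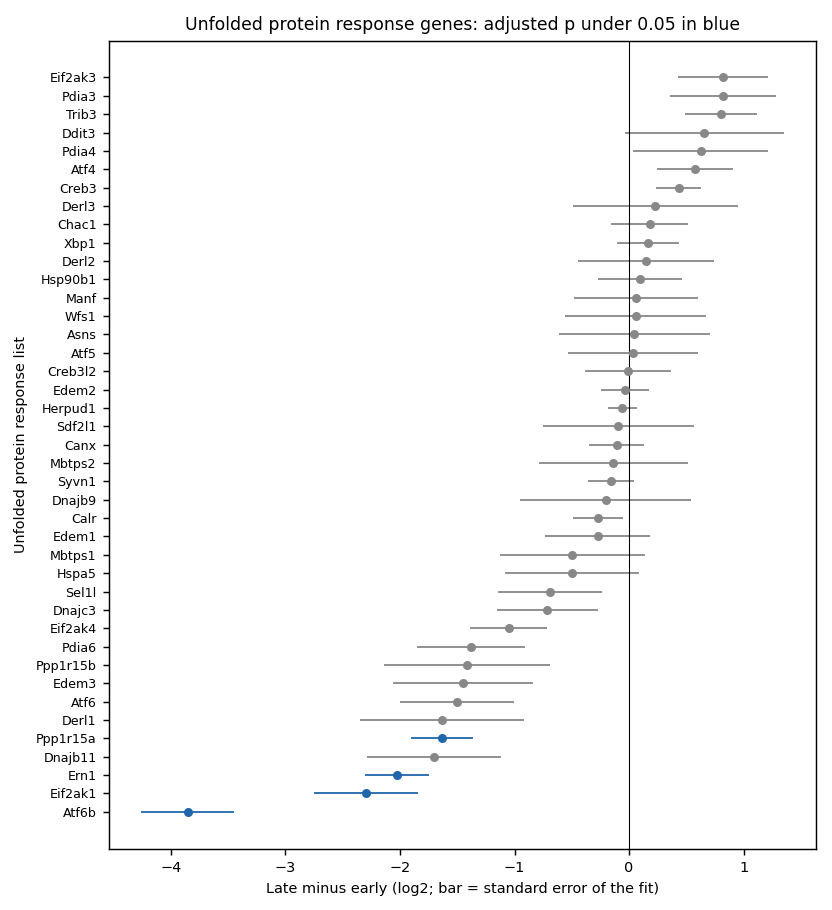
Late minus early change in log2 intensity (horizontal axis, with its standard error) of the 41 measured members of the unfolded protein response list (vertical axis, in order of change), called genes in blue. Atf6b stands apart at -3.85, the called Eif2ak1, Ern1 and Ppp1r15a lie from -2.30 to -1.63, and no member above 0 was called.

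The other members of the list were not called. Atf6 had a change of -1.50 (SE 0.50, adjusted p = 0.342). The third sensor, Eif2ak3, which encodes PERK, had 0.82 (SE 0.39, adjusted p = 0.517), from a level near background. Hspa5, the main ER chaperone BiP, had -0.50, and the folding enzyme Pdia6 had -1.38 (SE 0.47, adjusted p = 0.357). These were picked from the list after their values were seen. Dnajb11, an ER co-chaperone, had -1.70 (SE 0.59, adjusted p = 0.363). The count of called members depended on the arrays: 1 remained without the 4 arrays with the fewest distinct values, 2 with that number as a covariate, 2 without the 2 h embryo a or b, 2 with only the 12 h embryos as late, and 1 with only 10 h as late, only 2 h as early or only 4 h as early.

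Most other lower genes belong to no list, and they are ordered below by what their proteins are known to do, an order made after the calls and without a test. The secretory pathway list had 49 measured members, of which 1 was called, Tm9sf3, and 11 were lower and 3 higher at an unadjusted p under 0.05 (22.4% and 6.12%). Its median change was -0.19. The count of 11 was 7 without the 4 arrays with the fewest distinct values, with that number as a covariate, with only 10 h as late and with only 2 h as early. Tm9sf3, a Golgi membrane protein, had a change of -3.82 (SE 0.76, adjusted p = 0.045). Its early embryos ran from 12.23 through 12.93 to 13.26 and its late ones from 6.99 through 8.38 to 13.68. The groups overlapped, because 1 late embryo, 10 h c, stood at 13.68 and above every early embryo, while the 12 h mean was 7.55. Without 10 h c the change was -4.50 (adjusted p = 0.000394), while the call was lost in 13 of the 15 fits without 1 embryo, that is in all but those without 10 h c or 10 h d (adjusted p of up to 0.096). Another probe of Tm9sf3 gave -0.60. Its relative Tm9sf2 had -1.07 (SE 0.22, adjusted p = 0.0519) and Tmed9, a carrier of cargo between ER and Golgi picked after its value was seen, had -2.18 (SE 0.46, adjusted p = 0.0563). Neither was called.

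Plat encodes tissue plasminogen activator, a secreted protease whose stored mRNA gains its poly(A) tail when the mouse oocyte matures. Early embryos ran from 13.68 through 14.57 to 15.41 and late ones from 8.03 through 10.83 to 12.46. The groups did not overlap, the change was -3.63 (SE 0.54, adjusted p = 0.0106), and another bright probe gave -2.13. In oocytes the level was 15.52 ± 0.20 (SD, n = 3), at 6 h 12.97 ± 0.86 and at 8 h 11.60 ± 1.56 (SD, n = 3 each), so that the 6 h mean was already below the lowest early embryo.

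Dpy19l3, an ER enzyme that attaches mannose to tryptophan, ran from 10.96 through 11.85 to 12.45 in early and from 8.08 through 8.70 to 10.59 in late embryos. The groups did not overlap, and the change was -2.71 (SE 0.43, adjusted p = 0.0143). Its other 3 probes above background gave -0.39, -0.34 and 0.47, and so did not show a fall of that size. Saraf, an ER membrane protein that turns off calcium entry at the cell surface, ran from 13.34 through 13.99 to 14.51 and from 9.72 through 12.20 to 12.81, without overlap (change -2.16, SE 0.40, adjusted p = 0.034). Furin, a Golgi protease that cleaves precursors of secreted proteins, had -3.05 (adjusted p = 0.0406), Zdhhc24, of a family of enzymes that attach palmitate to proteins, had -3.50 (adjusted p = 0.0345), and Gxylt1, which adds xylose to Notch, had -3.00 (adjusted p = 0.0331). Early and late values of these last 3 overlapped, and their calls were lost in 12, 12 and 9 of the 15 fits without 1 embryo, at adjusted p of up to 0.0901, 0.0806 and 0.0747. The call of Saraf was lost in 8, without any 2 h embryo, the 4 h embryos a, c and d or the 12 h embryos a and b (adjusted p of up to 0.0832).

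Among called genes of known or related transporters and channels, Ttyh3, a member of the tweety family of channel-like proteins, ran from 12.78 through 13.56 to 14.69 in early and from 7.98 through 10.48 to 11.66 in late embryos. No late embryo reached the early range (change -3.46, SE 0.53, adjusted p = 0.0129). Slc31a2, related to the copper transporter CTR1, ran from 13.78 through 14.38 to 14.71 and from 10.77 through 12.49 to 13.21, again without overlap (change -1.93, SE 0.29, adjusted p = 0.0106), and another probe gave -1.90. Slc45a3 had -1.56 (SE 0.23, adjusted p = 0.0106), with early embryos from 13.73 through 14.11 to 14.25 and late ones from 11.60 through 12.51 to 13.37. Slc23a2, a vitamin C transporter, had -1.80 (SE 0.30, adjusted p = 0.0161) with no overlap, and its call was lost without the 2 h embryo b or d at adjusted p of up to 0.0522. The choline transporter Slc44a1 had -2.81 (adjusted p = 0.0406) with overlapping groups, and lost its call in 12 of the 15 fits without 1 embryo (adjusted p of up to 0.0953). Slc7a13, an amino acid transporter, stood at background in both pools (6.99 ± 0.27, n = 7, and 6.35 ± 0.23, n = 8, mean ± SD), so its call of -0.64 (adjusted p = 0.0406) concerns a probe without clear signal.

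Fat1, a giant cadherin at the cell surface, had -1.78 (SE 0.29, adjusted p = 0.0161). Its groups did not overlap, another 2 bright probes gave -2.24 and -2.50, and of the fits without 1 embryo the call was lost in the one without the 2 h embryo a (adjusted p = 0.0588). Jag1, a Notch ligand, had -1.25 (adjusted p = 0.0491) on the probe used and -2.0 on another bright one. Tmem30b, a partner of enzymes that move lipids across membranes, had -3.12 (SE 0.54, adjusted p = 0.0249) with no overlap and -2.72 on another probe. Tspan9, a tetraspanin, had -3.35 (adjusted p = 0.034), and Sdc1, a heparan sulphate proteoglycan, had -0.60 (SE 0.11, adjusted p = 0.0331), the smallest fall of all the called genes. Clstn1 had -3.29 (adjusted p = 0.0271) and Dgcr2 -2.19 (adjusted p = 0.0335), but a second probe above background gave 0.67 for Clstn1 and 0.17 for Dgcr2. Pttg1ip, a membrane protein that binds securin, had -3.01 (adjusted p = 0.0406). In fits without 1 embryo, the call of Tmem30b was lost in 6 of 15, that of Clstn1 in 7, of Sdc1 in 9, of Dgcr2 in 10, of Tspan9 in 11, of Pttg1ip in 12 and of Jag1 in 13, at adjusted p of up to 0.109.

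**Figure D3:**
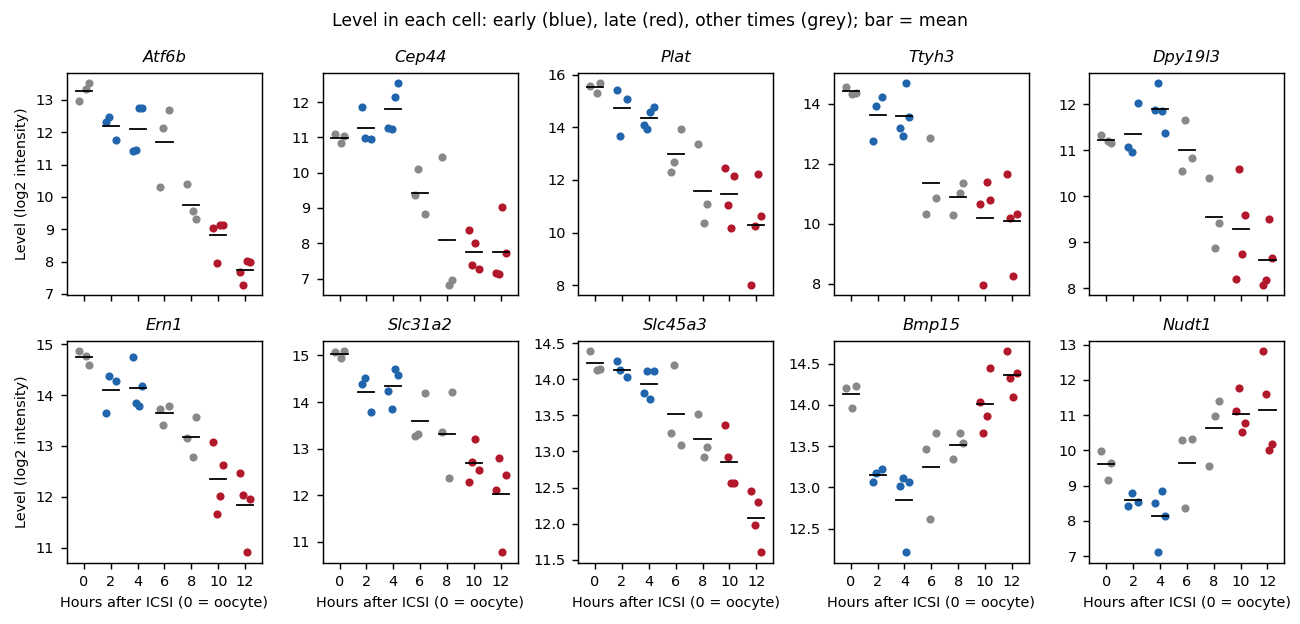
Level in log2 intensity (vertical axis) against hours after ICSI (horizontal axis, 0 for oocytes) of the 10 genes called in all fits that left out 1 embryo, 1 point per cell, blue for early, red for late, grey for other times, with the mean of each time as a bar. The late points lie below the early ones in 8 genes, and above them in Bmp15 and Nudt1, with no overlap in any of the 10.

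Genes of meiotic arrest and cell division did not move one way. Of 64 measured members of that list, 2 were called, both lower, while 5 were lower and 7 higher at an unadjusted p under 0.05 (7.81% and 10.9%), and the median change was 0.05. Mos, the kinase that starts the MAP kinase cascade which holds the oocyte in metaphase II, ran from 12.74 through 13.50 to 14.99 in early and from 7.31 through 10.57 to 12.71 in late embryos. The lowest early and the highest late embryo almost touched, at 12.74 and 12.71. The change was -3.39 (SE 0.64, adjusted p = 0.0345), and the mean was 11.39 at 10 h and 9.54 at 12 h, against 15.20 ± 0.15 (SD, n = 3) in oocytes. The call stood without the 4 h embryo b, the 10 h embryos a, c or d or the 12 h embryo b, and was lost in the other 10 of the 15 fits without 1 embryo, at adjusted p of up to 0.0881.

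Smc3, a subunit of the cohesin ring that holds sister chromatids together, had -3.08 (SE 0.58, adjusted p = 0.0345), and another probe gave -2.36. Early embryos ran from 10.64 through 12.30 to 12.80 and late ones from 7.28 through 8.72 to 11.63, with overlap. Cep44, a centrosome protein, is outside the list. Its early embryos ran from 10.96 through 11.27 to 12.53 and its late ones from 7.12 through 7.56 to 9.04. The groups were far apart (change -3.81, SE 0.40, adjusted p = 0.000235), and the oocyte mean of 10.99 ± 0.13 (SD, n = 3) lay at the low end of the early embryos. At 6 h the mean was 9.43 ± 0.64 and at 8 h 8.08 ± 2.04 (SD, n = 3 each). Over the alternatives run on log2 intensity, the change of Cep44 ran from -4.03 to -1.93. Cdc26, a subunit of the anaphase-promoting complex, had -1.69 (SE 0.28, adjusted p = 0.0161) without overlap, and its call was lost without the 2 h embryo a (adjusted p = 0.0588). The change of Cdc26 ran from -1.85 to -0.26 over the same alternatives, and its limma adjusted p over all 32 reached 0.708. Ccnyl1, a cyclin Y relative, had -2.52 (adjusted p = 0.0364). Smc3 and Ccnyl1 each lost their call in 11 of the 15 fits without 1 embryo, at adjusted p of up to 0.085 and 0.0907.

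The remaining members of the division list were not called. Cdk1, the kinase that drives entry into mitosis, ran from 7.54 through 9.88 to 11.69 in early and from 10.70 through 11.60 to 12.98 in late embryos (change 2.06, SE 0.57, adjusted p = 0.215). Birc5, or survivin, of the chromosomal passenger complex, had 2.03 (SE 0.45, adjusted p = 0.0693), and the checkpoint kinase gene Bub1b had -2.92 (SE 0.60, adjusted p = 0.0525). Birc5 and Bub1b were picked after their values were seen.

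The oocyte growth factors Gdf9 and Bmp15, relatives of the TGF-beta family that the oocyte secretes to the cells around it, were called in opposite directions. Gdf9 ran from 15.01 through 15.24 to 15.48 in early and from 13.17 through 14.08 to 14.74 in late embryos. The groups did not overlap, and the change was -1.19 (SE 0.22, adjusted p = 0.0331). The call stood without the 4 h embryo b, any 10 h embryo or the 12 h embryo d, and was lost in the other 9 of the 15 fits without 1 embryo (adjusted p of up to 0.0747). Bmp15 ran from 12.21 through 13.07 to 13.22 in early and from 13.66 through 14.21 to 14.65 in late embryos, also without overlap, and the change was 1.2 (SE 0.19, adjusted p = 0.0133). In oocytes Bmp15 stood at 14.13 ± 0.15 (SD, n = 3), above every early embryo and within the range of the late ones. With the number of distinct values as a covariate, the adjusted p was 0.175 for Bmp15 and 0.222 for Gdf9, with changes of 1.07 and -1.12.

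Of the 39 measured oocyte maternal genes, these 2 were the only ones called, and 9 were lower and 4 higher at an unadjusted p under 0.05 (23.1% and 10.3%), with a median change of -0.04. The count of 9 was 4 with only 10 h as late, 12 with only 12 h and 5 with only 2 h as early. Zp3, a protein of the zona pellucida around the oocyte, had -2.02 (SE 0.64, adjusted p = 0.311) over a wide range, from 9.69 to 14.15 in early and from 8.36 to 11.95 in late embryos. H1f8, the oocyte linker histone, had -1.24 (SE 0.30, adjusted p = 0.105). By contrast, the point estimates of Btg4, an adaptor that recruits the deadenylase to maternal mRNA, and Dppa3, a maternal protector of methylation in the female pronucleus, lay close to 0. Btg4 changed by -0.04 (SE 0.14, adjusted p = 0.95), with medians of 14.26 and 14.28, and Dppa3 by 0.09 (SE 0.16, adjusted p = 0.884), with medians of 14.65 and 14.61.

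RNA and nuclear factors gave a few lower calls. Lsm5, a subunit of the Lsm rings that act in mRNA decay and in splicing, was the 1 called of 52 measured members of the mRNA decay list (change -2.77, SE 0.51, adjusted p = 0.034). Early embryos ran from 8.51 through 10.81 to 11.86 and late ones from 7.01 through 7.47 to 9.67, with overlap. Of that list 3 were lower and 1 higher at an unadjusted p under 0.05 (5.77% and 1.92%), shares close to those of all genes or below. The exosome subunit Exosc3 had -1.05 (SE 0.41, adjusted p = 0.419). Prmt1, the main protein arginine methyltransferase, had -2.55 (SE 0.48, adjusted p = 0.0349) with overlapping groups. Smu1, a splicing factor, had -1.11 (SE 0.20, adjusted p = 0.0335) without overlap, and its other 2 probes gave -1.22 and -1.31. Nfya, a subunit of the factor that binds CCAAT boxes, had -0.97 (SE 0.19, adjusted p = 0.0449), with late embryos from 12.99 to 14.46 reaching into the early range of 14.08 to 15.03. Zswim3 had -2.25 (adjusted p = 0.0345) and Klhl18, of a family of adaptors for ubiquitin ligases, had -2.79 (adjusted p = 0.0335). In fits without 1 embryo, the call was lost in 8 of 15 for Smu1, 10 for Lsm5 and Klhl18, 11 for Prmt1, 12 for Zswim3 and 14 for Nfya, at adjusted p of up to 0.107.

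The 6 higher genes did not belong to 1 pathway list. Nudt1, also known as MTH1, which removes oxidized nucleotides from the pool used for DNA synthesis, ran from 7.10 through 8.50 to 8.85 in early and from 10.00 through 10.94 to 12.81 in late embryos. Early and late values were apart (change 2.77, SE 0.45, adjusted p = 0.0161), and the oocyte level, 9.60 ± 0.41 (SD, n = 3), lay between them. Higd2a, a mitochondrial factor of respiratory supercomplexes, ran from 7.85 through 10.81 to 11.97 and from 12.29 through 13.13 to 14.85, without overlap (change 3.09, SE 0.62, adjusted p = 0.045). Its oocyte mean, 12.86 ± 0.56 (SD, n = 3), lay within the late range. The call of Higd2a was lost in all 15 fits that left out 1 embryo, at adjusted p between 0.0509 and 0.089. The gene 0610009B22Rik, known by this clone name in the files, had the largest rise, 3.79 (SE 0.68, adjusted p = 0.0331). Its early values of 6.55 to 11.09 overlapped its late values of 10.44 to 13.29, another probe gave 1.66, and the call was lost in 8 of those fits (adjusted p of up to 0.0747).

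Snhg5, a host gene of small nucleolar RNAs that is processed into a spliced noncoding RNA, ran from 6.67 through 7.97 to 9.47 in early and from 10.07 through 10.93 to 13.03 in late embryos. Every late embryo was above every early one (change 3.30, SE 0.64, adjusted p = 0.0406), and the mean was 10.45 at 10 h and 12.14 at 12 h. Oocytes stood at 8.18 ± 0.62 and 6 h embryos at 7.23 ± 0.82 (SD, n = 3 each), within the early range. Gadd45g, a stress- and growth-response gene whose product binds cell cycle kinases, stayed near background in early embryos, from 7.06 through 7.63 to 8.44, and ran from 8.89 through 9.44 to 11.30 in late ones. These did not overlap either (change 1.97, SE 0.39, adjusted p = 0.045). Oocytes and 6 h embryos stood at 7.24 ± 0.22 and 7.18 ± 0.11, and 8 h embryos at 9.23 ± 0.78 (SD, n = 3 each). The call of Snhg5 stood without the 4 h embryo c or the 10 h embryos a, c or d, and that of Gadd45g without the 10 h embryos a or b. They were lost in the other 11 and 13 of the 15 fits without 1 embryo, at adjusted p of up to 0.0936 and 0.106. Over the alternatives run on log2 intensity, the change of Snhg5 ran from 1.62 to 4.15. Its limma adjusted p over all 32 alternatives reached 0.54.

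Snhg5 and Gadd45g were called higher from an oocyte mean within the early range, as was 0610009B22Rik, and both carry a TATAAA sequence on the strand of the gene close to the annotated start, so the 250 bases before their starts are shown. They were chosen after their values were seen. The sequences are from RefSeq for GRCm38.p6, on the strand of the gene, for Gadd45g chr13:51846425-51846674 (plus strand) and for Snhg5 chr9:88522898-88523147 (minus strand). Capitals mark the 4 motifs searched on both strands, which are the TATA box letters TATAAA, the CCAAT box letters CCAAT, the E-box letters CACGTG and the GC box letters GGGCGG, none of which holds another.
Gadd45g: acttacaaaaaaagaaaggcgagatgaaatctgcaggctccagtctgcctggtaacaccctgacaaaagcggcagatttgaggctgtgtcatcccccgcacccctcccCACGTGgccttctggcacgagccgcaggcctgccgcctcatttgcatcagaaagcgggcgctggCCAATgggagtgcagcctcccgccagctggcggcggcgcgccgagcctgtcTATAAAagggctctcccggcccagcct
Snhg5: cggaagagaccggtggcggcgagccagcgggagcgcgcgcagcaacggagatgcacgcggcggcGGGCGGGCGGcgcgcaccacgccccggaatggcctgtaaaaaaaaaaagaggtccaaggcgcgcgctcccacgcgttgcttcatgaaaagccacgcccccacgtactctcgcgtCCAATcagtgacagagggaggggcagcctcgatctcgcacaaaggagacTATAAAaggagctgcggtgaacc
TATAAA began 27 bases before the start in Gadd45g and 23 in Snhg5, and CCAAT began 78 and 72 bases before it. CACGTG in Gadd45g began 142 bases before the start, and the overlapping pair of GGGCGG in Snhg5 186 and 182 bases before it. A match describes the letters and does not show a binding site. RefSeq promoters matched 37 of the 43 called genes. TATAAA was in 3 of the 6 higher and 2 of the 31 lower genes that matched (50% and 6.45%; the third higher gene was Bmp15, with TATAAA on the opposite strand, and the lower ones were Furin and Klhl18), against 11.2% of 15535 matched genes tested here and 13% of all 27025 in the table. CCAAT was in 33.3% of the higher and 45.2% of the lower genes, against 35.9% of the genes tested, and GGGCGG in 50% and 67.7%, against 46.5%. CACGTG was in 16.7% of the higher and 6.45% of the lower genes, against 7.09%. The sets were not matched for level, and the differences between these shares were not tested.

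**Figure D4:**
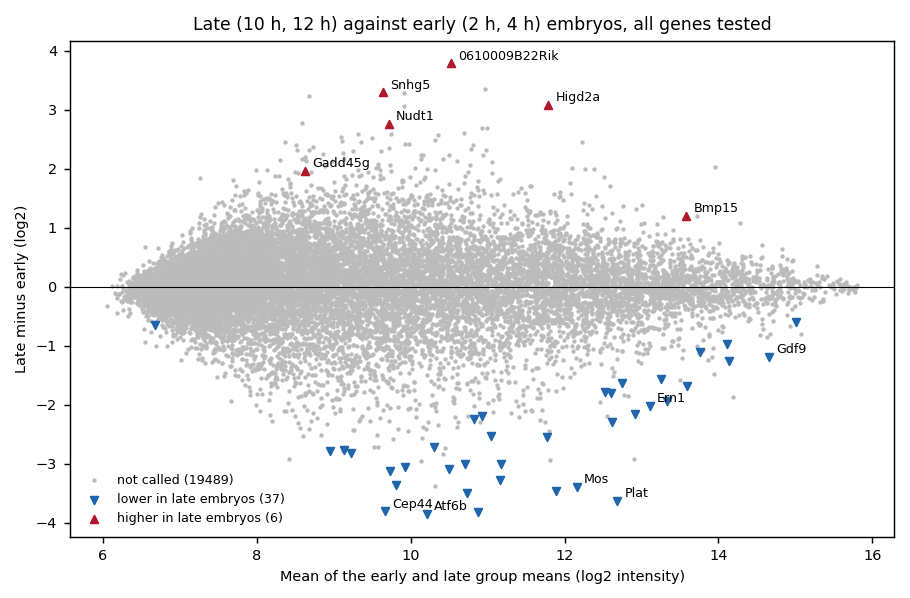
Late minus early change in log2 intensity (vertical axis) against the mean of the early and late group means (horizontal axis, log2 intensity) for 19532 genes, 1 point per gene, called lower genes as blue and called higher genes as red triangles. The cloud is centred near 0 (median 0.02), and the called lower genes reach to -3.85 and the called higher genes to 3.79.

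Lists without any call differed in their shares at the wider threshold. These lists, too, were chosen with earlier results of these data known, and their shares were not matched for level. Of 26 measured 2-cell-stage genes, switched on around genome activation, limma called 0, and 9 were higher and 1 lower at an unadjusted p under 0.05 (34.6% and 3.85%), with a median change of 0.27. Arg2, an arginase counted in this list, ran from 7.03 through 10.38 to 11.54 in early and from 11.76 through 12.23 to 12.88 in late embryos. The groups did not overlap (change 2.69, SE 0.60), but the adjusted p was 0.0709. Zfp352, a zinc finger gene, had 1.59 (SE 0.67, adjusted p = 0.468), Usp17lb 1.44 (SE 0.45, adjusted p = 0.312) and Usp17lc 1.42 (SE 0.65, adjusted p = 0.498). The Usp17l genes are a family of near-identical ubiquitin-protease copies whose probes may share signal, so they are not separate observations. Klf17, picked after its value was seen, had 0.56 (SE 0.21, adjusted p = 0.402). Fgf1, the 1 lower member and likewise picked after its value was seen, had -1.76 (SE 0.59, adjusted p = 0.346). With only 10 h as late the list held 3 higher and 2 lower members, and with only 12 h as late 9 and 0. Zfp352 stood at 8.22 ± 0.45 at 10 h and 10.13 ± 1.78 at 12 h, and Usp17lc at 7.95 ± 0.52 and 10.61 ± 1.08 (SD, n = 4 each), although neither difference was called. With only 2 h or only 4 h as early, 5 were higher. The count of 9 was 4 without the 4 arrays with the fewest distinct values and 3 with that number as a covariate. It was 5 without the 2 h embryo b or d or the 12 h embryo a. It was 6 without the 2 h embryo a, the 4 h embryo a or d or the 12 h embryo b or c.

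Cytosolic ribosomal protein genes and oxidative phosphorylation genes also held more higher than lower members. Of 71 ribosomal protein genes limma called 0, while 14 were higher and 0 lower at an unadjusted p under 0.05 (19.7% and 0%), and the median change was 0.33. Rps6, a protein of the small subunit, ran from 8.76 through 11.34 to 12.60 in early and from 12.05 through 12.80 to 14.12 in late embryos (change 1.75, SE 0.45, adjusted p = 0.154). Rpl12 stood at 7.27 to 7.88 in early embryos and spread from 7.09 through 10.92 to 11.60 in late ones (change 2.37, SE 0.64, adjusted p = 0.181). Ribosomal protein genes have many processed copies in the mouse genome, and their probes may read some of them. The count of 14 was 13 without the 4 arrays, 11 with the covariate, and 9 without the 12 h embryo b. It was 7 with only 10 h as late, 17 with only 12 h as late, and 8 with only 2 h as early.

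Of 75 oxidative phosphorylation genes limma called 0, while 12 were higher and 2 lower at an unadjusted p under 0.05 (16% and 2.67%), with a median change of 0.27. These encode subunits of the mitochondrial respiratory chain and ATP synthase. Ndufb9 of complex I had 2.32 (SE 0.70, adjusted p = 0.286) and Ndufv2 of the same complex had -1.88 (SE 0.52, adjusted p = 0.202), so the members nearest to the threshold pointed in different directions. The count of 12 was 9 both without the 4 arrays and with the covariate, 6 with only 10 h as late, 14 with only 12 h, and 8 with only 4 h as early.

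**Figure D5:**
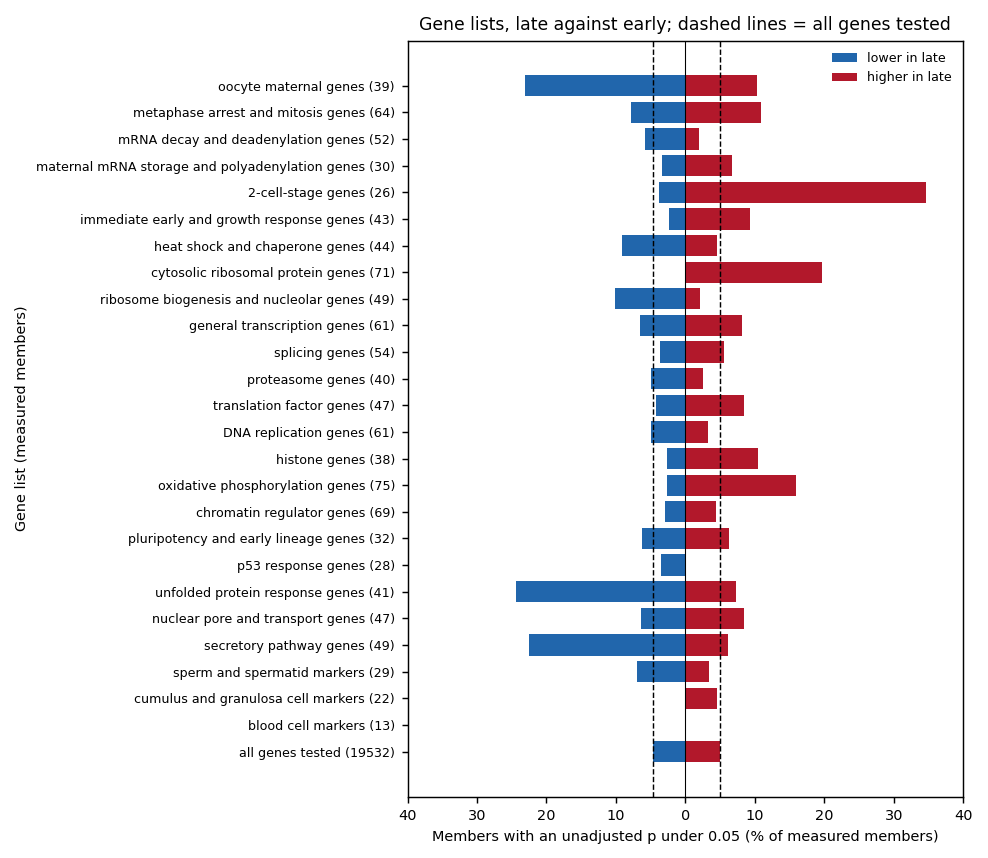
Share of the measured members of each gene list with an unadjusted p under 0.05 (horizontal axis, %), lower in late embryos to the left in blue and higher to the right in red, with the shares of all 19532 genes as dashed lines. The unfolded protein response, oocyte maternal and secretory pathway lists reach beyond 20% to the left, and the 2-cell-stage and ribosomal protein lists to 34.6% and 19.7% on the right. The lists were chosen with earlier results of these data known. Shares are not matched for level: 35 of 41, 37 of 39 and 43 of 49 members of the first 3 lists exceeded background by 1 log2 unit, against 10636 of all 19532 genes.

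The remaining lists lay nearer to the background of 4.59% lower and 5.06% higher genes. Of 43 immediate early and growth response genes, 1 was called, Gadd45g, and 4 were higher and 1 lower at an unadjusted p under 0.05. Its relative Gadd45b had 1.55 (SE 0.62, adjusted p = 0.434), and Myc had 0.37 (SE 0.34, adjusted p = 0.748). Of 54 splicing genes limma called 0 and 3 were higher and 2 lower. The helicase Dhx16 among them had 3.29 (SE 0.70, adjusted p = 0.0563), while another probe of Dhx16 gave -0.03. Of 61 DNA replication genes 0 were called by limma and 2 were higher and 3 lower: Pold2 and Gins4 had 2.06 and 2.12 (adjusted p = 0.202 and 0.302), and Pcna had -0.70 (SE 0.30, adjusted p = 0.471). Of 49 ribosome biogenesis genes 0 were called by limma and 1 was higher and 5 lower, with Rrp12 at -1.94 (SE 0.55, adjusted p = 0.235). Of 44 heat shock and chaperone genes 0 were called by limma and 2 were higher and 4 lower. In that list Hspa8, the constant cytosolic Hsp70, had -1.53 (SE 0.54, adjusted p = 0.377) and Hspa1b, the inducible one, had 1.99 (SE 0.81, adjusted p = 0.446).

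Of 30 genes of maternal mRNA storage and 69 of chromatin regulation limma called 0, with 3 and 5 at an unadjusted p under 0.05. Lsm14b, an oocyte mRNA storage protein, ran from 15.14 through 15.25 to 15.49 in early and from 14.17 through 14.48 to 15.25 in late embryos (change -0.67, SE 0.16, adjusted p = 0.0916). Eif4enif1, which encodes a protein that binds the cap-binding factor, had 0.81 (SE 0.21, adjusted p = 0.154) on the probe used and -0.17 on another bright probe. The third of the 3, Cstf2, a factor of mRNA 3' end cleavage, had 1.99 (SE 0.79, adjusted p = 0.434). The DNA methyltransferase Dnmt3a had 0.46 (SE 0.15, adjusted p = 0.33), and Cbx1, which binds methylated histone H3, had 0.69 (SE 0.21, adjusted p = 0.274). Sall4, a transcription factor of early embryos that limma did not call, had -0.77 (SE 0.24, adjusted p = 0.303).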

How the data were processed

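Single-cell cDNA was made and amplified by PCR, per the labels' protocols, and hybridised to Agilent arrays. The deposited values are scores without a stated scale, the submitters' processing notes name limma, and the sources used here state neither further steps nor the probes' genome build. The label field reads biotin, which the labels' protocols give to the reference and not to the sample, marked with digoxigenin, and 1 value per probe was analysed. The deposited scores (0 to 4.57) had the curvature of intensity put through the natural log 2 times, read from tied probes, and were turned back into log2 intensity (5.68 to 15.86). An added constant and a scale factor of the intensities stay undetermined. On simulated arrays the largest error was 0.0287. The planned test assumed log2 values, so the recovered ones were tested.

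Of 41174 probes, 32664 had 1 platform gene symbol, 45 several and 8465 none. The symbols of 32524 were matched through Entrez identifiers to the RefSeq table of GRCm38.p6, and 0 changed. The probe with the highest mean over 24 arrays stood for a gene, 8511 of 19532 having more than 1. Of the 43 called genes, 19 had another probe above background by 1, and in 3 of these such a probe went the other way. One limma fit (3.58.1, R 4.3.3; lmFit, eBayes with trend) compared the 2 pools. In simulated data of 19532 genes, late against early recovered 23.9% of changes of log2 1, 53.7% of 2 and 98.5% of 4, with 5 false calls.

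Correlations between embryos were 0.777 to 0.900, and no 2 arrays were copies. Deviations of embryos with the same replicate letter correlated by -0.13 to 0.18 (median 0.04), over 0.1 in 3 of 21 pairs. Those with different letters correlated by -0.24 to 0.18 (median -0.01), over 0.1 in 2 of 63 pairs. These weak correlations do not settle whether the letters pair embryos.

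Genes and lists were chosen with earlier results of these data known. By rule the text names up to 12 called genes in each direction with the largest change and no overlap (filled by the smallest adjusted p), all called list members, 2 members of each list with the smallest p, and a fixed set of genes, of which Ccnb1 had no probe of its own. The 19 other called genes were named after their values were seen. Not all genes the rule gives are described.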

Additional observations from a re-analysis of the deposited data

Results flagged for a closer look

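In 97 named or called genes, the 7 early and the 8 late values were searched for a single embryo far from the others of its pool (Dixon's test), 194 groups in all, and 19 held one. Chance gives about 1 in 20. All values are log2 intensities, and 14 of the genes hold their single embryo in the early pool. Among called genes, Nudt1 stood at 7.10 in the 4 h embryo b against 8.13 to 8.85 in the other early ones, Bmp15 at 12.21 in 4 h c against 13.01 to 13.22, and Smc3 at 10.64 in 4 h c against 11.88 to 12.80. Dgcr2 stood at 13.41 in 2 h a against 11.56 to 12.11, and Slc7a13 at 7.53 in 4 h a against 6.69 to 7.05. In late embryos Gadd45g stood at 11.30 in 12 h a against 8.89 to 9.95, Klhl18 at 9.88 in 10 h a against 6.88 to 7.55, and Slc31a2 at 10.77 in 12 h c against 12.12 to 13.21.

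Of the genes not called, the 4 h embryo c was low in Rps6 (8.76 against 11.18 to 12.60) and high in Hspa1b (12.85 against 7.04 to 9.54). The 4 h embryo d was high in Gadd45b (8.98 against 6.67 to 7.15) and Ndufb9 (9.89 against 6.53 to 7.44), and the 4 h embryo a was low in Eif2b1 (13.74 against 14.33 to 14.77). The 2 h embryo a was high in Med8 (15.01 against 11.13 to 12.66), 2 h b in Gja1 (7.29 against 6.57 to 6.88) and S100a8 (8.51 against 6.36 to 7.2), and 2 h d in Rpl9 (10.17 against 6.86 to 7.77). In late embryos U2af1 was low in 12 h b (11.97 against 13.16 to 14.06) and Ndufv2 high in 12 h d (9.87 against 6.89 to 8.02).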

How the results depend on the processing

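Of the 43 called genes, 0 reversed direction in any of the 32 alternatives that tested them. Slc7a13 was tested in 31, as it was not among the brighter 60% of genes. The genes Atf6b and Cep44 (2 of the 43) were called in all 32, and 20 lost their call in more alternatives than kept it. The count of 43 became 68 with each array centred on its median (8 higher, 60 lower), 149 with all 24 arrays and 7 time means (37 higher, 112 lower; 38 of the 43 shared), 78 with 4 time means (16 higher, 62 lower) and 90 over the brighter 60% of genes (21 higher, 69 lower). It became 74 with only 12 h as late (24 higher, 50 lower, 26 of the 43 shared) and 7 with only 10 h (0 higher, 7 lower, 6 shared). It became 9 with only 2 h as early (0 higher, 9 lower, 2 shared) and 4 with only 4 h (0 higher, 4 lower, 2 shared). These are alternatives with fewer embryos. Leaving out 1 embryo gave 11 to 47. With the replicate letter as a replicate block it was 22 (3 higher, 19 lower, all among the 43), and whether the letters pair embryos is not settled. In alternatives chosen after seeing the data, it was 7 without the 4 arrays with the fewest distinct values and 3 with that number as a covariate. The causes of these moves were not tested. The count stayed within 1.5 times for the deposited scores (32), 50 added to intensity (44), no trend (45), array weights (45), the mean of all probes (58) and a minimum change of 1 (40). In the same order, these kept 32, 42, 34, 41, 33 and 40 of the 43 genes.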
